A study of Mus musculus with 2 samples.

Results

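This account covers 10 mouse genes of the pigment cell lineage and of its Kit and endothelin 3 signals: the ligands Kitl and Edn3, the receptors Kit and Ednrb, the transcription factor Mitf, the melanosome proteins Pmel and Mlana, and the melanin enzymes Tyr, Tyrp1 and Dct. The genes were listed by symbol and matched by Ensembl identifier, and all 10 were found among the 43346 Ensembl genes of both libraries. The study measured total RNA from the facial prominence, the tissue of the developing face, of B6NCrl mouse embryos at 14.5 days. There is 1 group, with no treatment and no engineered allele named in the labels, and it holds 2 libraries, replicate 1 and replicate 2, each made from 10.0 ng of RNA. The labels describe each as 1 face of 1 embryo, collected on separate days, and also give the sex as pooled, which was not resolved. The estimated read totals were 30919488 in replicate 1 and 37738872 in replicate 2. With 2 libraries of 1 group no test between conditions exists, so levels and ratios are given as descriptions, and intervals named as counting intervals cover counting error only.

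Melanocytes arise from the neural crest as melanoblasts, some directly and some from glial precursors along nerves, and migrate into the skin and hair follicles. The receptor tyrosine kinase Kit, bound by Kit ligand from surrounding cells, and the G protein-coupled receptor Ednrb, bound by endothelin 3, sustain their survival, division and migration. Mitf, a basic helix-loop-helix factor transcribed from several promoters, drives the pigment genes through E-box sequences that include the M-box. Pmel forms the fibrils of the melanosome, Mlana takes part in its maturation, Tyr catalyses the first steps of melanin synthesis, and Dct and Tyrp1 act on later intermediates. Kit is also a defining receptor of mast cells, Mitf is also used by osteoclasts and mast cells, and the pigment epithelium of the retina uses most of the melanosome genes.

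The sequences that distinguish the forms and the promoters of these genes come first, since several results below refer to them. The melanin enzyme promoters are shown because all 3 hold the M-box core TCATGTG or its reverse complement CACATGA, in capitals. They are the 250 bases before the start in RefSeq windows of GRCm38.p6, read 5′ to 3′ on the gene's own strand. Tyr is on the minus strand at chr7:87493513-87493762, Tyrp1 on the plus strand at chr4:80833963-80834212, and Dct on the minus strand at chr14:118052247-118052496.

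Tyr: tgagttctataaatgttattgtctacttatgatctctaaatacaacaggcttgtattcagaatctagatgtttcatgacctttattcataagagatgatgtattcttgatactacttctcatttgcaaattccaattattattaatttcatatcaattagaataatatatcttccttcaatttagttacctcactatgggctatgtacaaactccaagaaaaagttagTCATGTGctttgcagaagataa

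Tyrp1: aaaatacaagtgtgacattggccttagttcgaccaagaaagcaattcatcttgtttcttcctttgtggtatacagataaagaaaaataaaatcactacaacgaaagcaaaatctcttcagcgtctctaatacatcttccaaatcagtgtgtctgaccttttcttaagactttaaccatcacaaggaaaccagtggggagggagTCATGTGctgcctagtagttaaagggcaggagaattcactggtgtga

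Dct: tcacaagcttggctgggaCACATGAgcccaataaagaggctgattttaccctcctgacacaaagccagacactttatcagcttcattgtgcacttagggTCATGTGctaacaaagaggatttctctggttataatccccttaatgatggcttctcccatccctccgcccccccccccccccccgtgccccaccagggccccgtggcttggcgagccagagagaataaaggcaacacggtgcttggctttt

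The motif began 22 bases before the annotated start in Tyr and 47 bases before it in Tyrp1. In Dct it occurred 151 bases before the start on the gene's strand and 232 bases before it in reverse. Windows of 300 bases, from 250 before to 50 after the start, were found for 8 of the 10 genes, and those of Tyr, Tyrp1 and Dct were the 3 with the motif. The windows of Mitf, Kit, Kitl, Edn3 and Ednrb did not hold these letters on either strand. Over all 32851 RefSeq windows, 1239 (3.77%) held the motif. Counted by gene symbol, as the genes and lists here are, it was 1165 of 27025 (4.31%). The wider E-box CANNTG, which every TCATGTG also contains, was in 72.3% of windows. Among 15 other melanosome and pigment genes with a window, 5 held the M-box core, and they were Slc24a5, Trpm1, Mc1r, Tspan10 and Slc7a11. Of 9 melanoblast regulators, 13 endothelin genes and 8 Mitf family and partner genes with a window, 0 held it, and the same was true of 5 receptors and ligands related to Kit and Kitl. It was also in 1 of 16 organelle sorting genes, Hps1, in 1 of 20 Kit signalling genes, and in 1 of 5 pigment switch genes, again Mc1r. These matches describe the letters only, and no binding was measured. The M-box is a motif already known from melanin enzyme promoters. Its presence in those of Tyr, Tyrp1 and Dct is therefore no test against the share of all windows.

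The Mitf forms are shown by their first coding exon, which sets the promoter class. Capitals mark the coding part of the first exon, and the lower case letters are the next 30 bases of the spliced transcript, in GENCODE M21 on GRCm38. The M exon, the most 3′ of the first exons and the one known for use in melanocytes, codes at chr6:97991921-97991953. The A exon, the most 5′ and known for broad use, codes at chr6:97807184-97807287.

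Mitf M: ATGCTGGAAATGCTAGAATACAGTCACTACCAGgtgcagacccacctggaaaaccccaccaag

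Mitf A: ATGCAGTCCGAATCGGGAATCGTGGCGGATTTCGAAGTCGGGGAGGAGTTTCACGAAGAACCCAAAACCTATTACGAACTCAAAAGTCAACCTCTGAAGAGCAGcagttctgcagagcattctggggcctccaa

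The full-length Kit forms differ in coding sequence by 12 bases at the end of exon 9, chr5:75639147-75639158, which code for 4 residues beside the membrane on the outer face of the receptor. Capitals mark those bases in the longer form, with 30 bases on each side.

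Kit longer form: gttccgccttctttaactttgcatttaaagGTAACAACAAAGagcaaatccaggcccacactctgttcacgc

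Kit shorter form: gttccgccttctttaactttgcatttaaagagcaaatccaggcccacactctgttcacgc

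The Kitl forms differ by exon 6, chr10:100080857-100080940, whose 84 bases hold the main site at which proteases release the soluble ligand. The form without it stays mostly on the cell surface. Capitals mark exon 6.

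Kitl longer form: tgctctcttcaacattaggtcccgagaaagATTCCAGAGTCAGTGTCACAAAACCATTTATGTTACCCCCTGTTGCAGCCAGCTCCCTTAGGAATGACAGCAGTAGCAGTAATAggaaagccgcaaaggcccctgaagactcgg

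Kitl shorter form: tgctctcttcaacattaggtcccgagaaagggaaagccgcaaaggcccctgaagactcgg

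Transcripts of all 10 genes were counted in both libraries. Levels are in TPM, the authors' unit for transcripts relative to all transcripts of a library, which is corrected for transcript length so that genes can be compared. At a threshold of 1 TPM, 8 of the 10 genes passed in both libraries. The same threshold was passed by 63.9% of 21474 protein-coding genes and by 34.9% of all 43346 Ensembl genes. Tyr missed it in replicate 2 and Tyrp1 missed it in replicate 1. By mean level the signal genes stood above the pigment genes, although Pmel passed Edn3 in replicate 2. Both receptors and both ligands had mean levels over 11 TPM, while the 3 melanin enzymes lay between 0.975 and 6.70 TPM. In bulk tissue fewer cells of a type and less RNA per cell cannot be told apart.

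**Figure D1:**
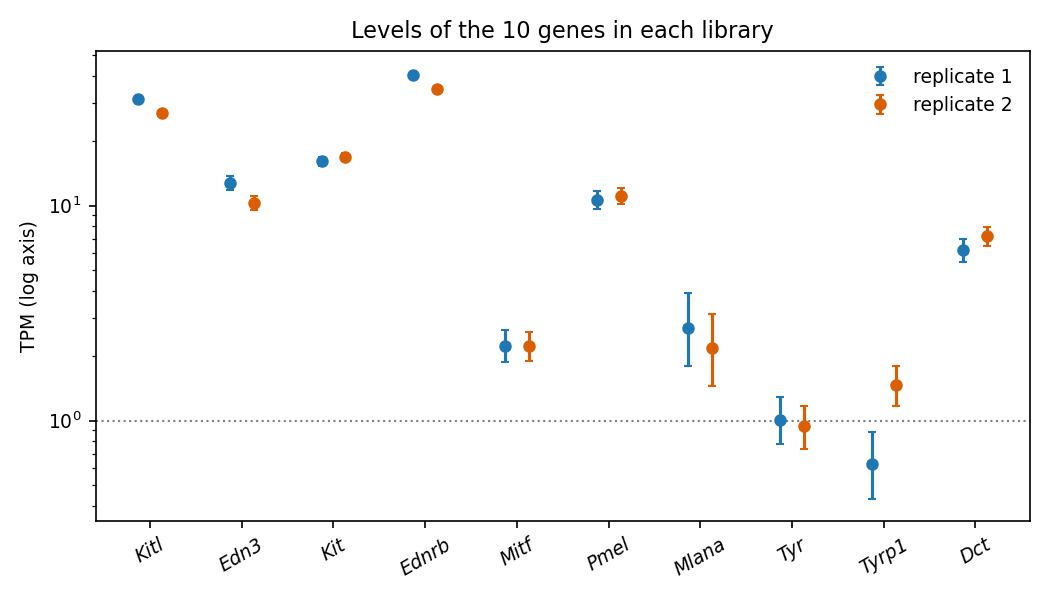
Level of each of the 10 genes in TPM (log axis) in replicate 1 and replicate 2, with bars for the 95% Poisson counting interval and a dotted line at 1 TPM. Ednrb is highest in both libraries, and Tyr and Tyrp1 lie around the line. Tyrp1 is the one gene of that pair whose 2 counting intervals do not overlap.

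Among the ligands, Kitl (ENSMUSG00000019966, chr10:100015630-100100416, plus strand) stood at 31.3 in replicate 1 and 26.9 TPM in replicate 2, from 2939 and 3410 counts. Its mean was 29.1 ± 3.07 TPM (SD, n = 2). Edn3 (ENSMUSG00000027524, chr2:174760619-174784042, plus strand), the endothelin that acts through Ednrb on neural crest cells, stood at 12.7 and 10.3 TPM, from 686 and 674 counts. Its mean was 11.5 ± 1.73 TPM (SD, n = 2). Both ligands were a little higher in replicate 1, and in both libraries Kitl was the higher of the pair.

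Among the receptors, Ednrb (ENSMUSG00000022122, chr14:103814625-103844402, minus strand) was the highest of all 10 genes. It stood at 40.3 in replicate 1 and 34.7 TPM in replicate 2, with a mean of 37.5 ± 3.98 TPM (SD, n = 2), above 82.0% of protein-coding genes. Kit (ENSMUSG00000005672, chr5:75574916-75656722, plus strand) stood at 16.1 and 16.8 TPM, from 1567 and 2093 counts, with a mean of 16.4 ± 0.523 TPM (SD, n = 2). The 2 signalling pairs differed in balance. The receptor exceeded its ligand in the endothelin pair, with an Ednrb to Edn3 ratio of TPM of 3.17 in replicate 1 and 3.38 in replicate 2. The ligand exceeded its receptor in the Kit pair, with a Kitl to Kit ratio of 1.95 and 1.60. These ratios do not say which cells made each transcript.

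Mitf (ENSMUSG00000035158, chr6:97807052-98021349, plus strand) stood at 2.23 in replicate 1 and 2.22 TPM in replicate 2, from 142 and 166 counts. The counting intervals were 1.88 to 2.63 and 1.90 to 2.59 TPM, and they overlapped almost wholly. Its level was above 40.9% of protein-coding genes. The deposited interval of the gene's TPM reached 76.5 in replicate 1 and 60.2 in replicate 2. An annotated Mitf transcript of 101 bases, with an effective length of 2 bases and 0 counts in both libraries, alone had upper bounds of 73.9 and 57.8 TPM, and the deposited gene interval was therefore not used.

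The melanosome genes differed from each other. Pmel (ENSMUSG00000025359, chr10:128704195-128720238, plus strand) stood at 10.6 in replicate 1 and 11.1 TPM in replicate 2, from 424 and 575 counts, with a mean of 10.9 ± 0.368 TPM (SD, n = 2). Mlana (ENSMUSG00000024806, chr19:29697824-29708634, plus strand) stood at 2.71 and 2.17 TPM, from only 28 and 29 counts on an effective length of 524 bases, with a mean of 2.44 ± 0.382 TPM (SD, n = 2). Its counting intervals ran from 1.80 to 3.92 and from 1.45 to 3.12 TPM. The exons of the quantified Pmel transcript share 105 bases with Dgka on the other strand, a gene at 13.7 and 12.6 TPM, and whether reads were assigned by strand is not given in the sources used here.

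The melanin enzymes were unequal as well. Dct (ENSMUSG00000022129, chr14:118012790-118052244, minus strand), which converts dopachrome and is known as an early melanoblast marker, stood at 6.19 in replicate 1 and 7.21 TPM in replicate 2, from 264 and 397 counts, with a mean of 6.70 ± 0.721 TPM (SD, n = 2). Tyr (ENSMUSG00000004651, chr7:87424771-87493512, minus strand), the enzyme that starts melanin synthesis, stood at 1.01 and 0.94 TPM, from 64 and 77 counts, with a mean of 0.975 ± 0.0495 TPM (SD, n = 2). Tyrp1 (ENSMUSG00000005994, chr4:80834123-80851719, plus strand) stood at 0.63 and 1.46 TPM, from 32 and 90 counts, with a mean of 1.05 ± 0.587 TPM (SD, n = 2). The deposited intervals of Tyrp1, 0.541 to 1.42 TPM in replicate 1 and 1.26 to 2.29 TPM in replicate 2, overlapped. Its counting intervals did not. Tyrp1 was the lowest of the 3 in replicate 1 and Tyr the lowest in replicate 2. The Dct to Tyr ratio of TPM was 6.13 in replicate 1 and 7.67 in replicate 2, and the Pmel to Tyr ratio was 10.5 and 11.8. Tyr was quantified on a transcript of 3307 bases, whereas GENCODE M21 gives that transcript 6042 bases. For Mlana the lengths were 623 and 906 bases. How the levels of these 2 genes would move with the longer models was not tested.

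From high to low the order in replicate 1 was Ednrb, Kitl, Kit, Edn3, Pmel, Dct, Mlana, Mitf, Tyr and Tyrp1. In replicate 2 the order changed only by swaps of neighbours: Pmel above Edn3, Mitf above Mlana, and Tyrp1 above Tyr. In these 3 pairs the values of the libraries interleave, while in the other 6 neighbouring pairs of the order every value of the higher gene was above every value of the lower. The counting intervals of Edn3 and Pmel were apart in replicate 1 and overlapped in replicate 2. The counting intervals of Mlana and Mitf overlapped in both libraries. Those of Tyr and Tyrp1 overlapped in replicate 1, and in replicate 2 they met at the edge, with an upper bound of 1.18 TPM for Tyr and a lower bound of 1.17 TPM for Tyrp1.

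The libraries were then compared gene by gene. Over the 15715 genes at a mean of 1 TPM or more, the median log2 ratio of TPM + 1 in replicate 2 over replicate 1 was -0.14, so ratios of the 10 genes are also given relative to that median. Of the 9 genes that reached the mean of 1 TPM, 0 differed 2-fold or more on log2(TPM + 1), against 1.81% of all genes so tested. Tyr stayed under that mean. In plain TPM without the added 1, Tyrp1 was the single gene past 2-fold, at 2.32 times its replicate 1 level, against a share of 2.77% of genes. Relative to the median, 6 of the 10 genes were higher in replicate 2: Kit, Mitf, Pmel, Tyr, Tyrp1 and Dct, of which Mitf and Tyr were slightly lower in TPM itself. The other 4, Kitl, Edn3, Ednrb and Mlana, were lower.

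The ratios of CPM, the estimated counts scaled to the total of each library but not to length, show how far counting error alone reaches. The ratio was farthest from 1 for a melanin enzyme and lowest for a ligand. For Tyrp1 the CPM ratio of replicate 2 to replicate 1 was 2.30, with an exact binomial 95% interval from 1.52 to 3.57. For Dct it was 1.23, from 1.05 to 1.45. For Edn3 it was 0.805, from 0.723 to 0.897. For Kit it was 1.09, from 1.02 to 1.17, and for Pmel 1.11, from 0.978 to 1.26. These 5 intervals did not include the median CPM ratio of all tested genes, 0.954, with Edn3 below it and the other 4 above. Of the 9 genes tested that is 5, and over all 15715 tested genes 43.2% of such intervals did not include it, so the share among these genes is near the background. The intervals of Kitl, Ednrb, Mitf, Mlana and Tyr included it. The widest of these were those of Mlana, from 0.487 to 1.48, and Tyr, from 0.698 to 1.40. Differences between embryos are not part of these intervals.

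**Figure D2:**
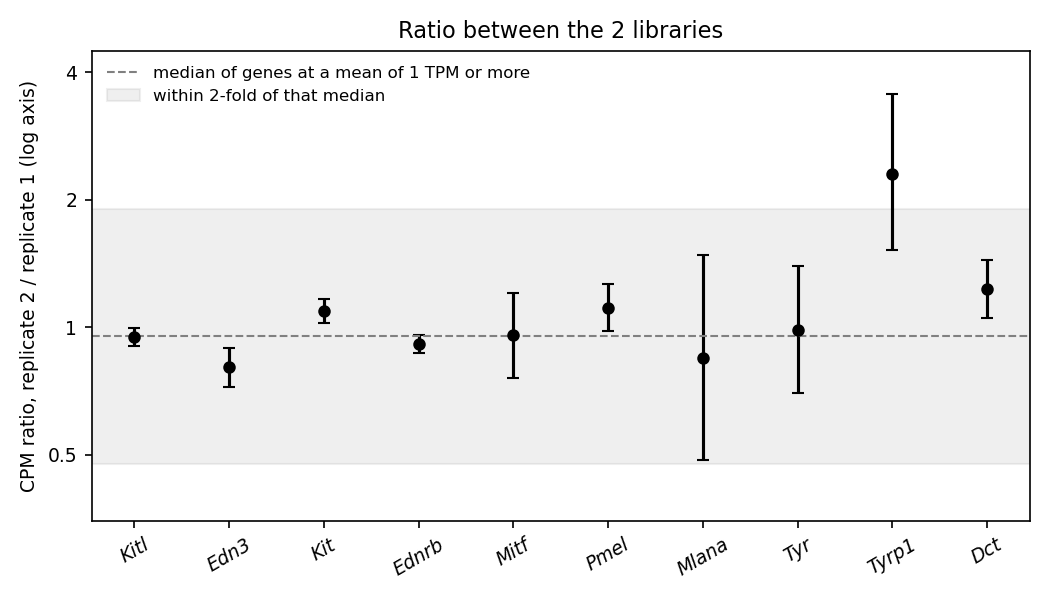
CPM ratio of replicate 2 to replicate 1 for each gene (log axis), with exact binomial 95% intervals, a dashed line at the median ratio of the tested genes (0.954) and a grey band for 2-fold around it. Tyrp1, at 2.30, is the 1 gene whose point lies outside the band.

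Mitf transcripts were grouped by their annotated first exon. The A class, starting at chr6 position 97807058, held 54.9% of the gene's TPM in replicate 1 and 55.0% in replicate 2. The M class, starting at position 97991792, held 17.4% and 18.0%, a mean of 17.7 ± 0.429% (SD, n = 2). In TPM the coding M transcript stood at 0.39 and 0.40, from 14.1 and 18.7 counts, and its deposited interval ran from 0.026 to 0.765 and from 0.027 to 0.789. A second M-class form that is a target of nonsense-mediated decay was at 0 counts in both libraries.

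The 2 classes in between were the least certain. The second start, position 97929799, held 27.7% in replicate 1 and 13.5% in replicate 2, and the third, position 97940918, held 0% and 13.5%. In replicate 2 both of these transcripts, each 2144 bases long, were assigned the same 15.5 counts. The upper bounds of their deposited intervals were 0.889 and 0.791 TPM for the second start and 0.603 and 0.698 TPM for the third, all above the values themselves. The A class included a retained-intron form with 8.09% of the TPM in replicate 1 and 16.4% in replicate 2. Its coding form held 46.8% and 38.7%, so the close A shares join opposite moves of the 2 forms. Among these coding forms only the A form has the long last exon of 3576 bases, against 934 bases in the others. Start site and 3′ end therefore cannot be told apart in these shares. By estimated counts in place of TPM, the M share was 9.94% and 11.3%, and the A share was 72.6% and 70.1%.

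Kit was split between its 2 full-length forms, and the libraries differed in the split. The form with the 12-base insert stood at 10.1 in replicate 1 and 6.83 TPM in replicate 2. The form without it stood at 5.33 and 9.05 TPM. Its share of the pair was 34.6% in replicate 1 and 57.0% in replicate 2, a mean of 45.8 ± 15.9% (SD, n = 2). The deposited intervals overlapped for each form, from 6.17 to 11.9 against 4.15 to 8.87 TPM for the longer form and from 3.05 to 8.74 against 6.57 to 11.3 TPM for the shorter. Which form was the higher changed between the libraries. The annotated form without the insert also starts further upstream, at position 75574916 against 75574955, so the insert and the 5′ end cannot be told apart in this share.

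Kitl was mostly the form with exon 6. The form with the exon stood at 26.0 in replicate 1 and 23.4 TPM in replicate 2. The form that lacks it stood at 3.02 and 3.04 TPM. Of these 2 forms the share with exon 6 was 89.6% and 88.5%, a mean of 89.1 ± 0.762% (SD, n = 2). A short coding form that ends before exon 6 held 7.19% of the gene's TPM in replicate 1 and 1.69% in replicate 2. The form with the exon also has a last exon of 4399 bases, against 381 bases in the form without it, so reads in the long 3′ end count for the form with exon 6. The exon and the 3′ end cannot be told apart in this share.

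**Figure D3:**
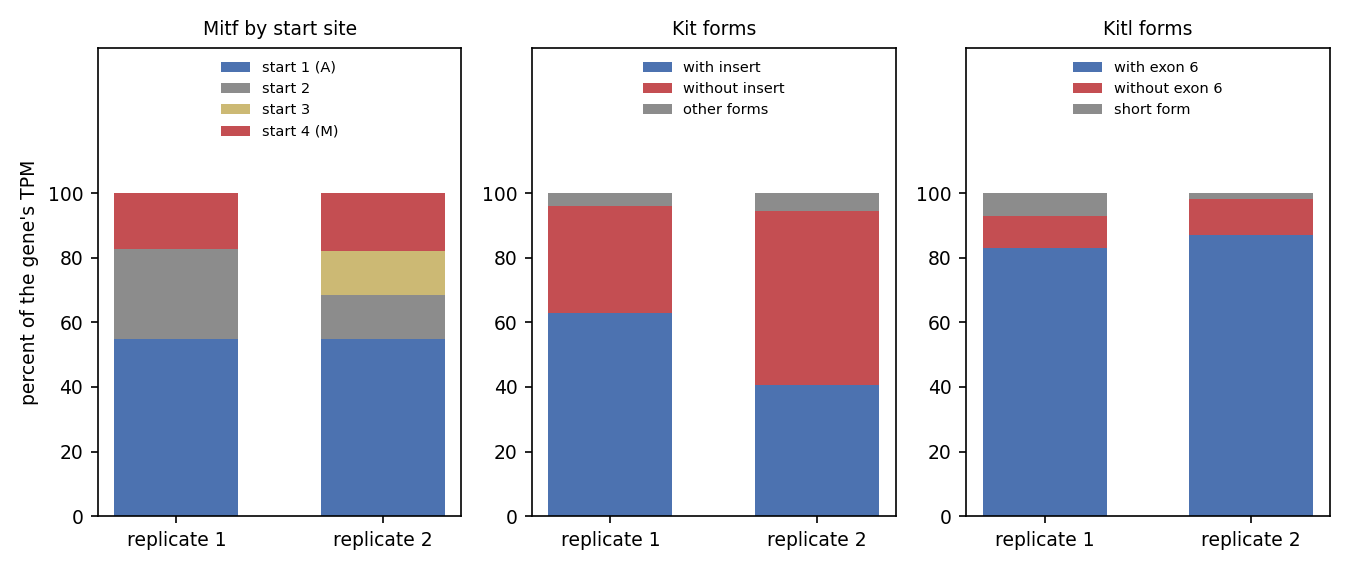
Stacked shares, in percent of the gene's TPM, of Mitf start classes, Kit forms and Kitl forms in replicate 1 and replicate 2. The Mitf M share (17.4% and 18.0%) and the Kitl exon 6 form (83.2% and 87.0% of all Kitl) are close between libraries, and the Kit split is not.

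The forms of the other genes were read in the same way. Edn3 had a retained-intron form that held 4.92% of its TPM in replicate 1 and 23.4% in replicate 2, while its main form held 86.3% and 71.8%. The deposited intervals of the retained-intron form overlapped, reaching up to 2.18 TPM in replicate 1 and starting at 1.20 TPM in replicate 2. Those of the main form did not, at 9.32 to 11.4 against 6.37 to 7.97 TPM. Ednrb divided about evenly between 2 coding forms, the first with 55.1% and 50.1% of its TPM and the second with 44.9% and 49.9%. The deposited intervals of these 2 forms overlapped in each library. Their annotated starts differ, at position 103844402 for the first and 103843696 for the second. The first was quantified on 3878 bases, against 4107 bases in GENCODE M21. Of Tyrp1, the form of 2623 bases stood at 0.39 in replicate 1 and 1.13 TPM in replicate 2. The form of 2720 bases stood at 0.24 and 0.22 TPM. Their deposited intervals overlapped between libraries. Tyr, Pmel, Dct and Mlana each had a single quantified transcript.

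The wider pathway lists gave the surroundings of these genes. Of 117 genes on 8 lists, 115 were matched, and 105 reached 1 TPM in both libraries. The share to set beside this and each list count below is 63.9% of protein-coding genes. Of the 106 tested, 0 were 2-fold higher and 1 was 2-fold lower in replicate 2, beside the 1.81% of all genes in either direction. That 1 gene was Sox5, a SoxD factor, at 17.1 in replicate 1 and 7.27 TPM in replicate 2. Its CPM ratio, which is not scaled to length, was 0.562, short of 2-fold, with a counting interval from 0.5015 to 0.630.

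Melanoblast regulators were at 1 TPM or more in both libraries in 15 of 16 cases, beside 63.9% of protein-coding genes. Which cells made these transcripts was not tested. The highest were the histone demethylase Kdm5b, at 54.7 and 47.3 TPM, Sox9, at 50.01 and 36.5 TPM, and Zeb2, at 40.8 and 39.2 TPM. Irf4, a regulator of Tyr in adult pigment cells, was the lowest, at 0.16 and 0.10 TPM. The crest factors Sox10, at 12.8 and 13.1 TPM, and Pax3, at 10.0 and 7.15 TPM, both known to act on the Mitf promoter, stood above Mitf itself in both libraries. The list's median log2 ratio, relative to the median of all genes, was -0.07.

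Of 19 other melanosome and pigment genes, 12 passed 1 TPM in both libraries. The top of the list was made up of genes that other cells also use, such as the tetraspanin Cd63, at 891 and 877 TPM, and the copper pump Atp7a, at 26.0 and 21.6 TPM. Among other transporters and channels of the list, Slc24a5 stood at 5.75 and 4.98 TPM and Trpm1 at 1.43 and 1.32 TPM. Slc45a2 stood at 0.36 and 0.54 TPM and Oca2, the lowest of the list by mean, at 0.17 and 0.26 TPM. The melanocortin receptor Mc1r stood at 0.23 and 0.24 TPM. Tspan10 rested on 2 counts in replicate 1 and 19 in replicate 2, a CPM ratio of 7.78 with a counting interval from 1.88 to 68.9. All 17 organelle sorting genes known from pigment mutants passed 1 TPM in both libraries, from Bloc1s1, at 200.4 and 184 TPM, down to Bloc1s3, at 1.26 and 1.00 TPM.

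In the endothelin system all 13 other genes passed 1 TPM in both libraries. Ednra, the second endothelin receptor, stood at 28.4 and 21.8 TPM, and the Ednrb to Ednra ratio was 1.42 in replicate 1 and 1.59 in replicate 2. The converting enzyme Ece1, which releases active endothelins, stood at 46.4 and 47.0 TPM. The other ligands were lower than Edn3, with Edn1 at 2.19 and 1.64 TPM and Edn2 at 3.20 and 2.30 TPM. All 26 Kit signalling genes passed as well. They included the kinase Map2k2, at 144 and 125 TPM, and, as the lowest, the adaptor Gab2, at 4.61 and 5.38 TPM. Adam17, a protease that can shed Kit ligand, stood at 30.8 and 26.6 TPM.

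Among the Mitf family and partners 9 of 10 passed. The relatives Tfe3, at 17.1 and 14.9 TPM, and Tfeb, at 7.97 and 6.57 TPM, were above Mitf in both libraries, and Tfec, at 0.97 and 1.10 TPM, was below it. Of the receptors of the same class as Kit and their ligands 7 of 8 matched genes passed. Pdgfra was the highest, at 76.5 and 59.5 TPM, and Flt3, the 1 that did not pass, stood at 0.29 and 0.34 TPM. Of 7 matched pigment switch genes 6 passed. They included Pomc, the precursor of melanocortins, at 20.8 and 16.7 TPM.

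Cells other than melanoblasts can carry the same transcripts, so their markers were read beside the 10 genes. Mast cell genes were abundant and stood higher in replicate 2. The 10 markers summed to 305 in replicate 1 and 493 TPM in replicate 2, with 7 of 10 at 1 TPM or more in both. The mast cell proteases Cma1, at 105 and 178 TPM, Cpa3, at 90.6 and 134 TPM, and Tpsb2, at 38.9 and 76.8 TPM, and the histamine enzyme Hdc, at 25.8 and 51.3 TPM, were each higher in replicate 2. For Cma1 the CPM ratio was 1.80, with a counting interval from 1.70 to 1.89. All 8 tested markers lay above the median ratio of all genes, with a list median 0.80 above it on the log2 scale. On log2(TPM + 1) 0 of the 8 passed 2-fold, beside 1.81% of all genes tested. With a pseudocount of 0.1 or none Mcpt4 passed, beside 3.12% and 2.77% of genes. With FPKM, TMM or size factors, and 1 still added, Hdc and Tpsb2 passed, beside 1.35%, 0.923% and 0.891% of genes. After centring on the median all 3 passed, beside 1.94% of genes. Srgn and Gata2 on this list are also used by other blood and endothelial cells. The lowest marker, Fcer1a, had 3 counts and 1 count. Kit, at 16.1 and 16.8 TPM, was lower than Cpa3 in both libraries, by a Cpa3 to Kit ratio of 5.64 and 7.96. The part of mast cells in the levels of Kit and Mitf, and in the Kit split, was not tested.

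Osteoclast genes also stood higher in replicate 2. The 8 markers summed to 141 in replicate 1 and 189 TPM in replicate 2, and all 5 tested lay above the median ratio. Of these, the proton pump subunit Atp6v0d2 was past 2-fold, at 1.64 and 4.66 TPM, beside 1.81% of all genes tested in either direction. Ctsk, the main collagen protease of these cells, stood at 92.7 and 113 TPM, and Oscar was the lowest, at 0.18 and 0.37 TPM. Which cells made the marker transcripts was not tested, and neither was the part of osteoclasts in the level of Mitf.

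Retinal pigment epithelium markers summed to 37.2 in replicate 1 and 28.4 TPM in replicate 2, with 5 of 10 at 1 TPM or more in both. The isomerase Rpe65, a known marker of that layer, had 0 counts in replicate 1, where 3 counts would equal 0.101 TPM, and 1 count in replicate 2. Whether Rpe65 is already made in that layer at this age was not tested. Rrh had 5 counts and 0 counts, the latter against a limit of 0.0797 TPM. Rdh5, at 13.2 and 12.0 TPM, and Stra6, at 12.95 and 7.96 TPM, led the list, followed by Otx2, at 4.21 and 4.15 TPM. Which cells made the marker transcripts was not tested. The part of retinal pigment epithelium in the levels of the melanosome and enzyme genes was not tested either.

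**Figure D4:**
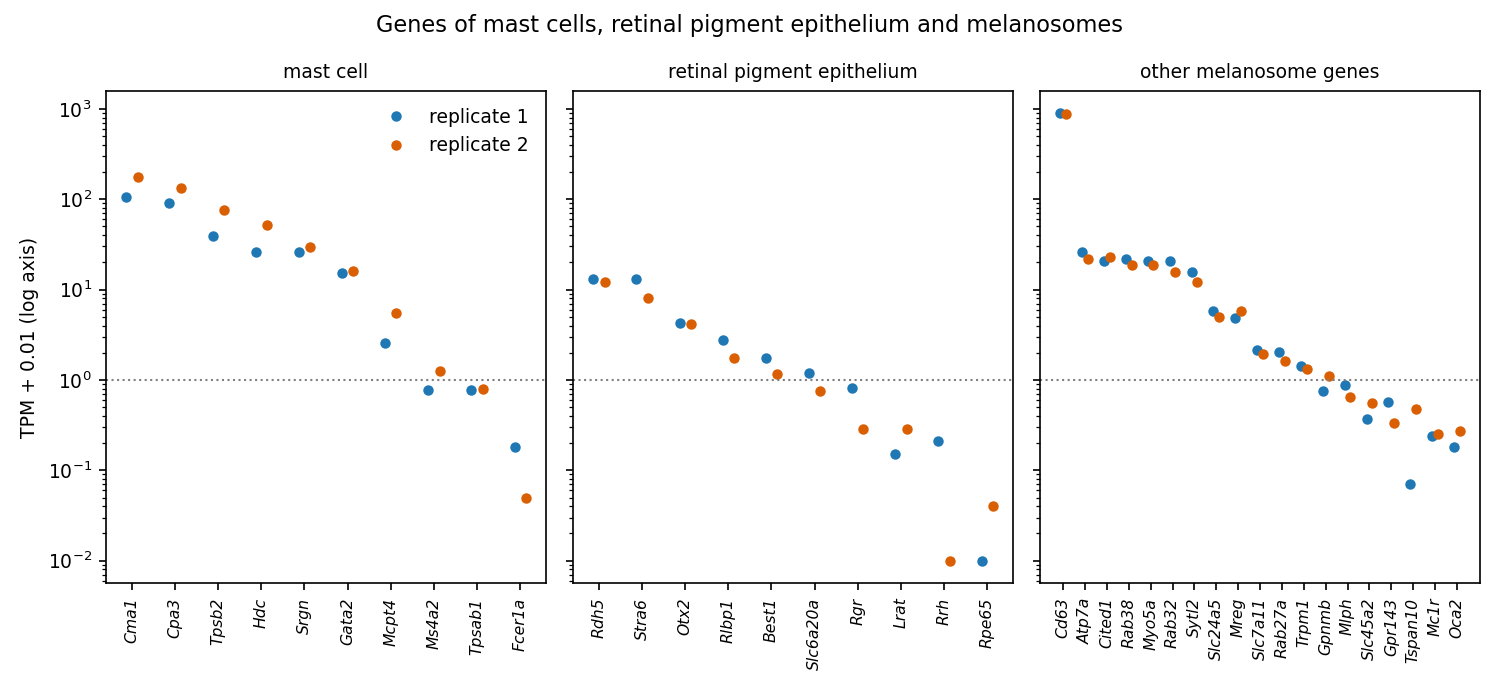
Level of each gene, as TPM + 0.01 on a log axis, in replicate 1 and replicate 2 for mast cell markers, retinal pigment epithelium markers and the other melanosome genes, ordered by mean level, with a dotted line at 1 TPM. Cma1 and Cpa3 lie above 100 TPM in replicate 2, at 178 and 134 TPM, and Rpe65 and Rrh lie at the bottom of the second panel.

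The remaining 6 marker lists had median log2 ratios from -0.03 to 0.18 relative to the median of all genes. Schwann cell precursor and glial markers, which share Sox10, Erbb3 and Foxd3 with the melanoblast list, summed to 157 and 150 TPM with 11 of 11 passing 1 TPM in both libraries. Fabp7 led them at 69.5 TPM in each library, and Foxd3 was lowest by mean, at 1.12 and 1.55 TPM. Enteric and autonomic crest markers, whose relatives in the gut need Edn3 and Ednrb, summed to 19.97 and 19.96 TPM with 7 of 7 passing. Endothelial markers summed to 286 and 268 TPM with 9 of 9, haematopoietic progenitor markers to 136 and 133 TPM with 6 of 8, basal keratinocyte markers to 826 and 822 TPM with 7 of 7, and facial mesenchyme markers to 429 and 371 TPM with 8 of 8. The labelled tissue was seen in its mesenchymal markers, led by Prrx1 at 80.1 and 78.8 TPM, and its epithelial ones, led by Krt14 at 299.6 and 297 TPM. Their part in the levels of Kitl, Edn3 and Ednrb was not tested.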

How the data were processed

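Total RNA was measured in 2 libraries of 1 group. Per the labels, the RNA was extracted with mirVana and the libraries were made with a SMART-seq protocol, with spike-in RNAs added. The deposited tables are for mm10 with GENCODE M4, per each library's companion text. The sources used here name no aligner or quantifier, and how strand was handled is not given. In the authors' tables an expected count is an estimated, unscaled number of reads. TPM and FPKM are the authors' length-scaled values, per the file headers. Isoform percent, as deposited, is each transcript's part of its gene, and the deposited interval bounds are the authors' estimates, whose level is not stated.

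CPM was computed from expected counts over all features. Counts were rounded for Poisson and exact binomial intervals (95%) and for the scaling by edgeR 4.0.16 (TMM) and DESeq2 1.42.0 (size factors), with R 4.3.3, Python 3.11.15 and scipy 1.17.1. A 2-fold difference was called on log2(TPM + 1) at a mean of 1 TPM or more. The difference rule and the interval were tested on simulated Poisson counts. Those counts hold no difference between embryos and no uncertainty of read assignment, so neither was covered. Mitf classes, exons and coordinates were read from GENCODE M21 (mm10), and promoter windows from RefSeq. Asip and Flt3l were not matched. The members and lists were chosen with earlier results of these data known. The rule for named genes was all 10 members and, of each list, the highest, the lowest and up to 3 more by level, plus any past 2-fold. It was not met in every list. The highest gene was left unnamed in some, among them the endothelin, Mitf family and pigment switch lists. For the endothelial, haematopoietic progenitor, and enteric and autonomic lists no gene was named by level. Beyond that rule, Sox10, Pax3, Slc24a5, Slc45a2, Trpm1, Mc1r, Tspan10, Slc7a11, Mcpt4, Adam17, Ednra, Edn2, Tfe3, Tfeb and Rrh were named after their values were seen. The values of 1 gene of a pathway list are not reported here. No library or sample was left out.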

Additional observations from a re-analysis of the deposited data

How the results depend on the processing

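The count of genes at 1 TPM or more in both libraries stayed between 8 and 10 under every threshold and unit tried, with 9 in each library alone. The count past 2-fold was 0 on log2(TPM + 1) and 1, Tyrp1, with a pseudocount of 0.1 or none. With 1 still added before the log, it was 0 with FPKM, TMM, size factors, centring, no filter and a mean of 5 TPM. These settings therefore do not test the Tyrp1 difference without the added 1. The Mitf M share, 17.7% of TPM, was 10.6% of expected counts and 20.2% of coding transcripts, and 17.4% to 18.0% with 1 library left out. The Kitl share with exon 6, 89.1%, was 97.5% of expected counts, 85.1% over all Kitl transcripts (chosen after seeing the data), and 88.5% to 89.6% with 1 library left out. The Kit share without the insert, 45.8%, was added after seeing the data: it was 34.6% without replicate 2 and 57.0% without replicate 1. The log2 ratio of Mitf was below 0 in TPM and above 0 with FPKM, TMM and size factors, and that of Tyr was above 0 with TMM and size factors. Both were above the median of all genes. TPM over Ensembl genes alone put Tyr over 1 TPM in both libraries. No paired analysis was possible because the 2 libraries form 1 group. Depth limits Mlana (28 and 29 counts), Tyrp1 and each Mitf class.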
